A study of Mus musculus with 15 samples.

Results

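Transcripts of glycolysis, hexose transport and the pentose phosphate pathway were compared among 5 lines of G1E cells, an immature mouse erythroid line that lacks GATA1, the transcription factor that drives red cell maturation. The list held 38 genes, and 33 of them had a probe set annotated to that gene alone, among 19933 genes tested; where a gene had several such probe sets, the one with the highest mean over the 15 arrays was used. Gpi1, Pfkfb1, Eno1 and G6pdx had no such probe set and Gapdh had only probe sets shared with other genes, so these 5 were not analysed here. Each line expressed a fusion of GATA1 with an estrogen receptor domain (ER), either wild type GATA1-ER or a version with R216Q, R216W, D218G or D218Y in its amino-terminal zinc finger, 3 biological replicates per line. All cultures, wild type included, were kept in 100 nM estradiol, the ligand that activates the fusion, for 24 hours, and untreated cells were not analysed here. The sources used here do not give the number of independently derived lines per construct. A line's own history and its mutation therefore cannot be told apart, and the p-values reflect only how these cultures varied.

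Glycolysis splits glucose to pyruvate and yields ATP without oxygen. Most of its steps can be run by several isozymes encoded by different genes, and tissues differ in which they use. The mature red cell has no mitochondria and lives on glycolysis. It uses the red cell form of pyruvate kinase (from Pklr), diverts part of the flow through bisphosphoglycerate mutase (Bpgm) to make the compound that loosens the hold of haemoglobin on oxygen, and draws NADPH against oxidation from the pentose phosphate pathway.

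Values are log2 expression values, on which a difference of 1 is a 2-fold change, and the number after ± is limma's standard error (SE, n = 3 per line). A gene was called, and is said to have risen or fallen, at a Benjamini-Hochberg adjusted p under 0.05 over all genes tested. Array medians lay between 6.24 and 6.41. In D218G, replicate 3 correlated with replicates 1 and 2 at 0.9977 and 0.9967, below the 0.9991 between these and the lowest value of the other lines (0.9982). limma's array weights, whose fit stopped before convergence, were lowest for replicate 1 of D218G (0.0643), followed by replicate 3 (0.27). Leaving out replicate 1 gave 17 members that differed between D218G and wild type. Without replicate 3, 20 members in place of 18 differed between D218G and wild type, 17 of them shared, and no member's log2 fold change moved by more than 0.16 (Pgm1). All 9 measured erythroid markers lay above the array medians in wild type, and 8 of 9 did in D218Y. Their mean level was 10.90 to 10.92 in wild type, 10.19 to 10.24 in R216Q, 10.49 to 10.57 in R216W, 10.28 to 10.35 in D218G and 8.97 to 9.01 in D218Y. Mast cell markers had a mean of 4.94 to 4.97 in wild type and 5.59 to 5.64 in D218Y, where 4 of 10 rose and 2 fell. The 7 measured megakaryocyte markers had means of 6.75 to 6.81 in wild type and 6.26 to 6.31 in D218Y, where 1 rose and 3 fell. Their mean was also lower than wild type in R216Q (6.39 to 6.46), D218G (6.47 to 6.56) and R216W (6.62 to 6.71). In each of these 3 lines 2 of them fell, and in D218G 1 rose. None of the 10 granulocyte and monocyte markers lay above the array medians in any line. The part of these shifts in the results below was not tested, and in RNA from whole cultures fewer cells of a type and less RNA per cell cannot be told apart.

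The upstream sequences of the 5 members with the largest F statistic among the lines are shown, because these genes differed most among the lines for their spread. Each is the 250 bases before the first listed start, 5′ to 3′ on the gene's strand, from RefSeq (GRCm38.p6): Pfkm at chr15:98092339-98092588 (plus strand), Pfkfb4 at chr9:108991652-108991901 (plus strand), Pgam1 at chr19:41911621-41911870 (plus strand), Hk2 at chr6:82774455-82774704 (minus strand) and Pfkp at chr13:6648772-6649021 (minus strand). Capitals mark matches on either strand to ACGTG, a form of the core bound by the hypoxia factor HIF, to CACGTG, the E-box bound by Myc and its relatives, which always contains ACGTG, and to GATAA, the core of the GATA site. Other forms of the HIF core were not searched for and are not marked.
Pfkm: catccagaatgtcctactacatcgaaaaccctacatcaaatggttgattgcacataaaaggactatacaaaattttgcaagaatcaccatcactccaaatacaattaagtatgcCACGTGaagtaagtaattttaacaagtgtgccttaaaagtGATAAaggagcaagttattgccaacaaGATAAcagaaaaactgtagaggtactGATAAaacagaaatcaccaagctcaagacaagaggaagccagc
Pfkfb4: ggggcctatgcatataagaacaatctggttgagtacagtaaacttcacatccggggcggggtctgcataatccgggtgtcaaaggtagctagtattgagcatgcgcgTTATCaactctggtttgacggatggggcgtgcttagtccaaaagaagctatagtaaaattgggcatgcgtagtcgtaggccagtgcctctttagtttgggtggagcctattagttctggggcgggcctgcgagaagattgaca
Pgam1: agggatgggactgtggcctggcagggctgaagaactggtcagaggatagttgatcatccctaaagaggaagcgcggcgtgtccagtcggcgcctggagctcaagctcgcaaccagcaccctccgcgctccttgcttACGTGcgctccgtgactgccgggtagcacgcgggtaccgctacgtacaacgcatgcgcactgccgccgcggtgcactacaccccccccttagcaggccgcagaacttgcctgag
Hk2: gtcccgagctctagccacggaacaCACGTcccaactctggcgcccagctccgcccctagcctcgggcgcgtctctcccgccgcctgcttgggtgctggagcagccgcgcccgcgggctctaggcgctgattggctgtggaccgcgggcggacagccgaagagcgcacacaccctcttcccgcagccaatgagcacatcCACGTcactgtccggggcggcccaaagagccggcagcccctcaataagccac
Pfkp: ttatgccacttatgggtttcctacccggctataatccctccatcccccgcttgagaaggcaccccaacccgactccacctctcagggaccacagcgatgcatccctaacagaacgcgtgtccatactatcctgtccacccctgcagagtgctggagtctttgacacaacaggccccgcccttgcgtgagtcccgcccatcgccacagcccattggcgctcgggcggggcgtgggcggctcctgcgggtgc
The upstream sequence of Pfkm held 1 CACGTG and 3 GATAA, that of Pfkfb4 held 1 GATAA, that of Pgam1 held 1 ACGTG and that of Hk2 held 2 ACGTG. No match to these motifs lay in the window of Pfkp, which does not cover other forms of the HIF core. Pfkm had 4 listed starts, and the windows of its other starts held no CACGTG. Of the 38 listed members 37 had entries, with 57 starts in all, of which 35.1% held ACGTG, 8.77% CACGTG and 21.1% GATAA. The shares over all 32851 starts in the table were 16.6%, 6.02% and 22.6%, and over the 21263 starts of protein-coding genes 17.8%, 6.63% and 20.5%. Base composition differed as well, at 57.7% G and C in the members' windows against 55.5% for protein-coding genes. A match is a description of letters, not a bound site.

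Most measured members differed between the lines, and in each mutant line more of them were higher than lower. In R216Q 21 of 33 rose and 2 fell against wild type (median log2 fold change 0.43), where 21.5% of all genes tested were called (11.8% higher and 9.65% lower, median -0.01). In R216W 16 rose and 6 fell (median 0.15), where 16.6% of all genes were called (9.36% higher and 7.23% lower). In D218G 14 rose and 4 fell (median 0.14), where 18.1% of all genes were called (10.3% higher and 7.77% lower). In D218Y 21 rose and 6 fell (median 0.43), where 44.4% of all genes were called and more of them fell (24.2%) than rose (20.3%), with a median of -0.07 over all genes. These 4 comparisons share the wild type arrays. The members were chosen with earlier results of these data known, so the shares over all genes are not an independent yardstick for them. The shares over all genes include genes of low level, whereas 28 of the 33 members were of above-median intensity. With only genes of above-median intensity tested, 4639 genes were called in R216Q, 3812 in R216W, 4054 in D218G and 7244 in D218Y. That set leaves out every gene at or below the median level, so these counts are not out of 19933. The share called in that set was larger than over all genes in each line, and in D218Y most of its genes were called. Of the 28 members 24, 23, 21 and 25 were called in the same order. The shares over all genes are therefore not matched to the members for level. By limma's F test 29 of 33 members differed among the lines, against 41.9% of all genes tested. The 4 that did not were Hk1, Pfkfb3, Eno2 and Ldhb. For Hk1 this holds only on the probe set used here, and its other probe set was lower in every mutant line, as given below. D218Y had the highest line mean for 16 of 33 members, whereas it was the highest line for 22.9% of all genes. Wild type had the lowest for 16 of 33, against 16.1% of all genes. These counts take line means whatever the size of their difference. The 16 include Hk1, whose line means spanned 0.02 on the probe set used. On the other probe set of Hk1 wild type was the highest line.

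**Figure D1:**
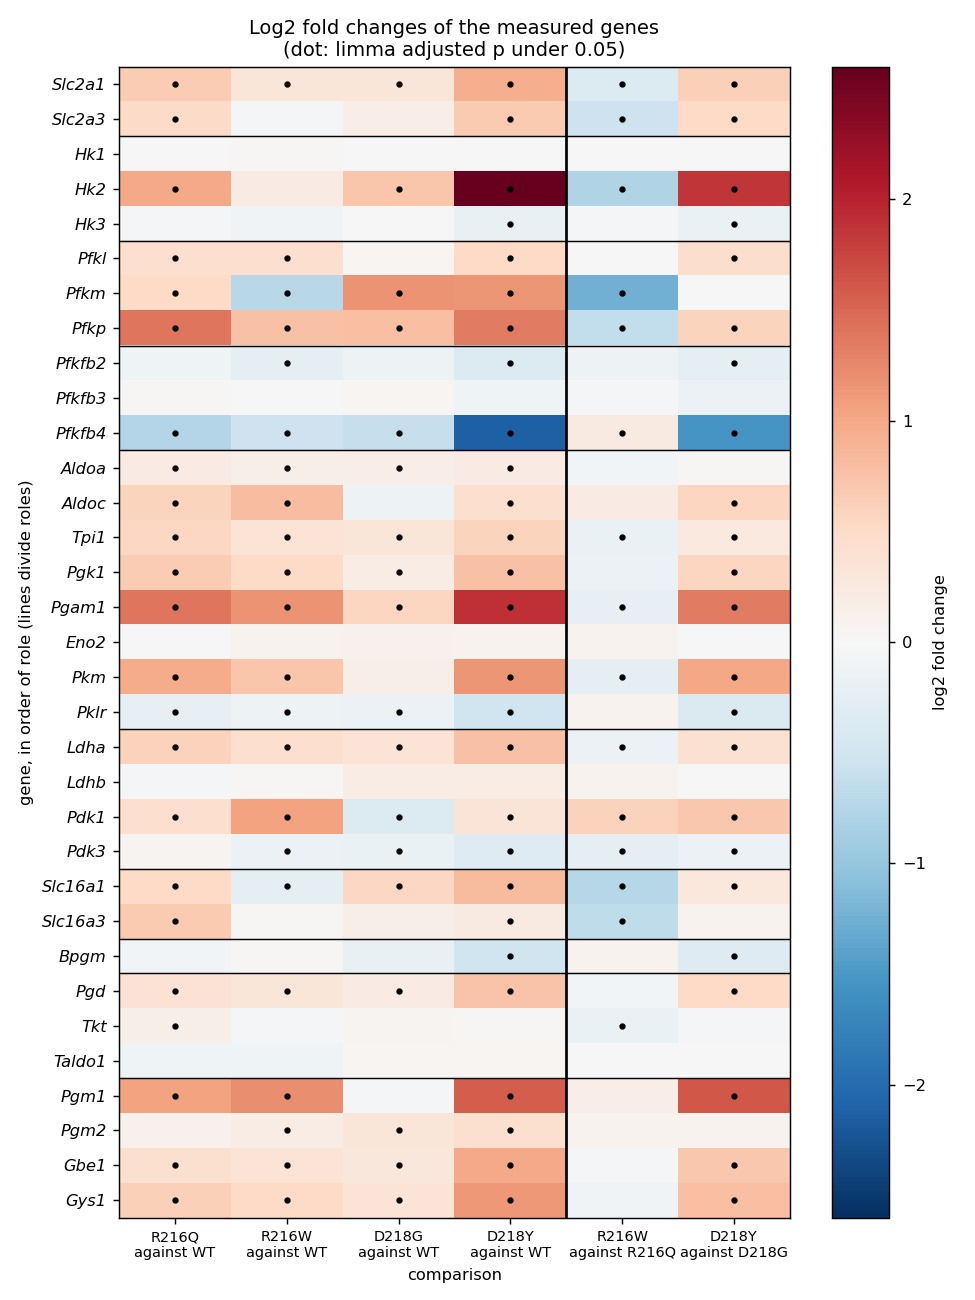
Log2 fold changes (colour) of the 33 measured genes, in rows by role, in 6 comparisons, in columns; a dot marks limma's adjusted p under 0.05. Hk2 and Pgam1 are the deepest red and Pfkfb4 the deepest blue in the D218Y column, at 2.59, 1.90 and -2.13, and Pfkm is blue in R216W alone among the comparisons with wild type, at -0.73.

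Glucose enters through facilitative transporters. Slc2a1, the GLUT1 transporter of immature and human red cells, rose in each mutant line. Its wild type arrays read 10.42, 10.31 and 10.38, those of R216Q 11.05, 10.89 and 11.16, of R216W 10.74, 10.67 and 10.64, of D218G 10.68, 10.66 and 10.74, and of D218Y 11.40, 11.36 and 11.19. No mutant array of Slc2a1 overlapped wild type, and R216W and D218G occupied the same range. The rises were 0.95 ± 0.07 in D218Y (adjusted p = 1.73e-08), 0.67 ± 0.07 in R216Q (adjusted p = 3.27e-06), 0.32 ± 0.07 in D218G (adjusted p = 0.00296) and 0.31 ± 0.07 in R216W (adjusted p = 0.00365). Slc2a3, the high-affinity transporter GLUT3, had a low wild type mean of 5.82 and rose by 0.68 ± 0.12 in D218Y and by 0.50 ± 0.12 in R216Q. In D218G it was at 0.16 ± 0.12 and in R216W at -0.03 ± 0.12, and neither passed.

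Hexokinase traps glucose as glucose 6-phosphate, and among its genes Hk2, the inducible form, had the largest change of any member. Its wild type arrays read 6.97, 6.78 and 6.68, those of R216Q 7.90, 7.56 and 7.90, of R216W 6.96, 7.14 and 6.94, of D218G 7.53, 7.53 and 7.55, and of D218Y 9.43, 9.41 and 9.37. The D218Y arrays lay far above all others, R216Q and D218G lay above wild type, and R216W overlapped wild type. Hk2 rose by 2.59 ± 0.09 in D218Y (6.03-fold, adjusted p = 6.87e-12), by 0.98 ± 0.09 in R216Q (adjusted p = 1.26e-06) and by 0.73 ± 0.09 in D218G (adjusted p = 3.45e-05). In R216W it was at 0.20 ± 0.09 (adjusted p = 0.163). Hk3 had a wild type mean of 5.84 and fell in D218Y by 0.18 ± 0.05 (adjusted p = 0.00743). That call was lost under quantile (adjusted p = 0.144) and cyclic loess normalization (adjusted p = 0.282), with adjusted p as low as 0.000771 under other alternatives.

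The reading of Hk1, the constitutive hexokinase of red cells, depended on the probe set. The one with the higher mean, used here by the rule, was level in every comparison, with log2 fold changes of 0.01 in R216Q and D218G and 0.02 in R216W and D218Y, each ± 0.06. Its annotation lists 1 accession and no RefSeq transcript, and 16 further probe sets list Hk1 together with the ribosomal protein gene Rpl17. The other probe set of Hk1 alone lists 8 accessions, RefSeq transcripts among them. It read 11.17, 11.17 and 11.16 in wild type, 10.98 to 11.08 in R216Q, 10.94, 11.02 and 10.95 in R216W, 11.03, 11.02 and 10.96 in D218G, and 10.93, 10.90 and 10.91 in D218Y. On it every mutant array was below wild type. Among all probe sets tested together it differed from wild type by -0.25 ± 0.04 in D218Y (limma adjusted p = 7.01e-05), -0.19 ± 0.04 in R216W (adjusted p = 0.00232), -0.17 ± 0.04 in D218G (adjusted p = 0.00676) and -0.15 ± 0.04 in R216Q (adjusted p = 0.0124). This second reading was chosen after the values were seen.

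Phosphofructokinase commits sugar to glycolysis, and its 3 genes did not move together. Pfkm, the muscle form, read 9.70, 9.64 and 9.69 in wild type, 10.18, 10.19 and 10.25 in R216Q, 8.93, 8.95 and 8.98 in R216W, 10.81, 10.83 and 10.88 in D218G, and 10.85, 10.83 and 10.78 in D218Y. The R216W arrays were below wild type and the other mutant lines above it, and D218G and D218Y overlapped. Pfkm rose by 1.16 ± 0.04 in D218G (adjusted p = 1.17e-10), by 1.14 ± 0.04 in D218Y (adjusted p = 3.59e-12) and by 0.53 ± 0.04 in R216Q (adjusted p = 8.84e-08), and fell by 0.73 ± 0.04 in R216W (adjusted p = 4.34e-09).

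Pfkp, the platelet form, read 8.78, 8.81 and 8.86 in wild type, 10.25, 10.12 and 10.29 in R216Q, 9.66, 9.57 and 9.52 in R216W, 9.60, 9.52 and 9.68 in D218G, and 10.25, 10.15 and 10.13 in D218Y. All mutant arrays lay above wild type, R216Q and D218Y in a common upper range and R216W and D218G in a common lower one. The rises of Pfkp were 1.40 ± 0.06 in R216Q (2.64-fold, adjusted p = 4.47e-10), 1.36 ± 0.06 in D218Y, 0.78 ± 0.06 in D218G and 0.76 ± 0.06 in R216W. Pfkl, the liver form, rose by 0.53 ± 0.06 in D218Y and by 0.43 ± 0.06 in both R216Q and R216W, and was at 0.06 ± 0.06 in D218G (adjusted p = 0.592).

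The PFKFB enzymes make and remove fructose 2,6-bisphosphate, the strongest activator of phosphofructokinase. Here the direction was opposite: no PFKFB gene rose in any mutant line. Pfkfb4 read 10.51, 10.57 and 10.56 in wild type, 9.81, 9.76 and 9.77 in R216Q, 10.02, 9.98 and 10.02 in R216W, 9.89, 9.91 and 10.03 in D218G, and 8.41, 8.42 and 8.42 in D218Y. Every mutant array was below wild type, with D218Y lowest by a wide gap. Pfkfb4 fell by 2.13 ± 0.04 in D218Y (-77.1%, adjusted p = 2.1e-14), by 0.77 ± 0.04 in R216Q (adjusted p = 4.02e-09), by 0.60 ± 0.04 in D218G (adjusted p = 1.12e-07) and by 0.54 ± 0.04 in R216W (adjusted p = 2.05e-07). Pfkfb2 fell by 0.36 ± 0.05 in D218Y and by 0.23 ± 0.05 in R216W, while Pfkfb3 had the lowest mean of any member (4.93) and passed in no comparison. In D218G Pfkfb2 was at -0.13 ± 0.05 (adjusted p = 0.0818, and 0.00897 to 0.311 over the alternatives), and it passed without replicate 3 of D218G (adjusted p = 0.00897). It also passed there under quantile (adjusted p = 0.0285) and cyclic loess normalization (adjusted p = 0.0126). The same held among genes of above-median intensity (adjusted p = 0.0328) and by eBayes with trend and robust (adjusted p = 0.043). For R216Q the adjusted p of Pfkfb2 was 0.157, and 0.0463 to 0.336 over the alternatives. It passed there only under cyclic loess normalization (adjusted p = 0.0463).

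Of the 8 measured genes of lower glycolysis, from aldolase to pyruvate kinase, 6 rose and 1 fell in R216Q, R216W and D218Y alike, and 4 rose and 1 fell in D218G. Pgam1, phosphoglycerate mutase, moved most. It read 9.74, 9.58 and 9.57 in wild type, 11.07, 10.93 and 11.06 in R216Q, 10.87, 10.73 and 10.80 in R216W, 10.14, 10.19 and 10.21 in D218G, and 11.56, 11.59 and 11.45 in D218Y. Each mutant line of Pgam1 occupied its own range above wild type. The rises were 1.90 ± 0.06 in D218Y (3.74-fold, adjusted p = 2.37e-12), 1.39 ± 0.06 in R216Q, 1.17 ± 0.06 in R216W and 0.55 ± 0.06 in D218G (adjusted p = 9.69e-06). Of the 3 probe sets of Pgam1, and likewise of Pgk1, 2 held identical values, so transcripts of near-identical copies cannot be told apart for these genes.

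The pyruvate kinase genes moved apart. Pkm, the form of most dividing cells, read 9.79, 9.75 and 9.70 in wild type, 10.76, 10.55 and 10.85 in R216Q, 10.51, 10.45 and 10.44 in R216W, 9.84, 9.98 and 9.85 in D218G, and 10.96, 10.91 and 10.82 in D218Y. It rose by 1.15 ± 0.07 in D218Y, by 0.97 ± 0.07 in R216Q and by 0.72 ± 0.07 in R216W, and was at 0.14 ± 0.07 in D218G (adjusted p = 0.191) although its arrays did not overlap wild type. The Pkm probe set used here lists 2 accessions and no RefSeq transcript. The other Pkm probe set lists 8 accessions, RefSeq transcripts among them. It gave 1.23 ± 0.07 in D218Y, 1.04 ± 0.07 in R216Q, 0.79 ± 0.07 in R216W and 0.20 ± 0.07 in D218G (limma adjusted p = 0.0877 over all probe sets). Splice forms of Pkm were not told apart. Pklr, the red cell form, fell by 0.52 ± 0.03 in D218Y (adjusted p = 6.21e-09), by 0.21 ± 0.03 in R216Q, by 0.15 ± 0.03 in D218G and by 0.13 ± 0.03 in R216W. The R216W call of Pklr (adjusted p = 0.0142, and 0.000317 to 0.0669 over the alternatives) did not hold when replicate 3 of wild type was left out (adjusted p = 0.0669), and both it and the D218G call were lost with the arrays of the compared lines alone (adjusted p = 0.0669 and 0.0845; 8.12e-05 to 0.0845 for D218G over the alternatives).

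Of the other genes of this stretch, Tpi1, Pgk1 and Aldoa rose in every mutant line. Tpi1, triosephosphate isomerase, rose by 0.57 ± 0.03 in D218Y, 0.53 ± 0.03 in R216Q, 0.35 ± 0.03 in R216W and 0.32 ± 0.03 in D218G. Pgk1, the first ATP-yielding kinase, rose by 0.76 ± 0.05, 0.66 ± 0.05, 0.51 ± 0.05 and 0.20 ± 0.05 in the same order. Its D218G call (adjusted p = 0.0105, and 0.000664 to 0.093 over the alternatives) did not hold when replicate 3 of wild type was left out (adjusted p = 0.0534). That call was also lost with the arrays of the compared lines alone (adjusted p = 0.0509) and with array weights (adjusted p = 0.093). Aldoa, the main aldolase, had a wild type mean of 12.44 and rose by 0.15 ± 0.04 in R216W, 0.18 ± 0.04 in D218G, 0.21 ± 0.04 in D218Y and 0.22 ± 0.04 in R216Q. Aldoc, the brain form, rose by 0.79 ± 0.13 in R216W, 0.59 ± 0.13 in R216Q and 0.43 ± 0.13 in D218Y, and was at -0.13 ± 0.13 in D218G. The D218Y call of Aldoc (adjusted p = 0.0141, and 0.00614 to 0.0799 over the alternatives) did not hold when replicate 3 of wild type was left out (adjusted p = 0.0799), nor without replicate 1 of D218Y (adjusted p = 0.0685). Eno2, neuronal enolase, had a wild type mean of 6.01 and passed in no comparison. In D218G Eno2 was at 0.11 ± 0.08 (adjusted p = 0.49, and 0.0388 to 0.914 over the alternatives), and it passed without replicate 3 of D218G (adjusted p = 0.0388). In D218Y Eno2 was at 0.09 ± 0.08 (adjusted p = 0.384, and 0.0116 to 0.673 over the alternatives), and it passed under quantile (0.19, adjusted p = 0.0222) and cyclic loess normalization (0.21, adjusted p = 0.0116).

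Bpgm, which feeds the red cell shunt and is related to Pgam1, showed the reverse of its relative in D218Y. It read 8.30, 8.39 and 8.36 in wild type, 8.38, 8.30 and 8.14 in R216Q, 8.28, 8.44 and 8.40 in R216W, 8.18, 8.04 and 8.29 in D218G, and 7.82, 7.86 and 7.83 in D218Y. The D218Y arrays were below all others, D218G lay just below wild type, and R216Q and R216W overlapped it. Of 9 erythroid markers, 9 fell in D218Y, 8 in R216Q, 7 in D218G and 6 in R216W, and their part in the values of Bpgm and Pklr was not tested. Bpgm fell by 0.51 ± 0.07 in D218Y (-29.9%, adjusted p = 1.81e-05). In D218G it was at -0.18 ± 0.07 (adjusted p = 0.0894, and 0.00866 to 0.288 over the alternatives) and passed without replicate 3 of that line (adjusted p = 0.023). There Bpgm also passed under quantile (adjusted p = 0.00866) and cyclic loess normalization (adjusted p = 0.0487) and among genes of above-median intensity (adjusted p = 0.0451).

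**Figure D2:**
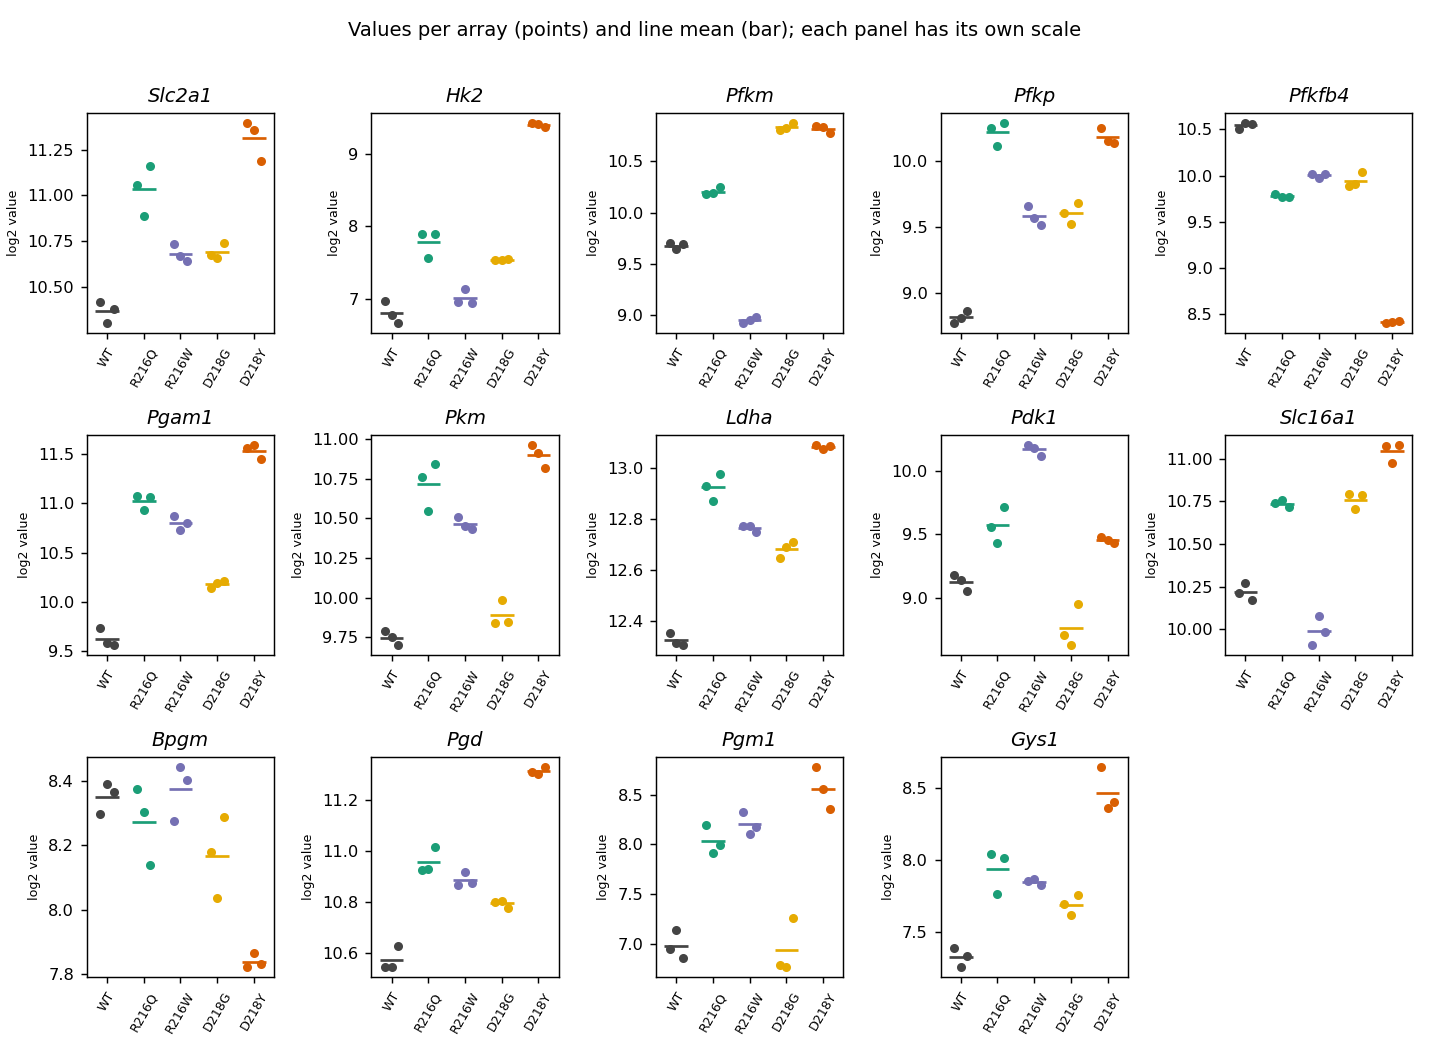
Log2 values (vertical axis, a scale for each panel) of 14 members on each array (points), with the mean of the 3 arrays of a line (bar), by line along the horizontal axis. Hk2 stands highest in D218Y (9.37 to 9.43), Pfkm lowest in R216W (8.93 to 8.98), and Pdk1 highest in R216W (10.12 to 10.20).

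Pyruvate leaves glycolysis as lactate or enters mitochondria, which the pyruvate dehydrogenase kinases (Pdk genes) oppose. Ldha, the lactate dehydrogenase subunit of glycolytic tissue, read 12.35, 12.31 and 12.31 in wild type, 12.93, 12.87 and 12.98 in R216Q, 12.77, 12.77 and 12.75 in R216W, 12.65, 12.69 and 12.71 in D218G, and 13.09, 13.07 and 13.09 in D218Y. The 5 lines of Ldha did not overlap. It rose by 0.76 ± 0.04 in D218Y (adjusted p = 1.81e-10), 0.60 ± 0.04 in R216Q, 0.44 ± 0.04 in R216W and 0.36 ± 0.04 in D218G. These values lie near the top of the array range (13.58), where differences can be compressed. Ldhb, the heart subunit, had a wild type mean of 5.91 and passed in no comparison.

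Pdk1 read 9.18, 9.15 and 9.05 in wild type, 9.56, 9.43 and 9.72 in R216Q, 10.20, 10.18 and 10.12 in R216W, 8.71, 8.63 and 8.95 in D218G, and 9.48, 9.45 and 9.43 in D218Y. The D218G arrays were below wild type and those of the other mutant lines above it, R216W highest. Pdk1 rose by 1.04 ± 0.08 in R216W (adjusted p = 2.26e-07), 0.44 ± 0.08 in R216Q and 0.33 ± 0.08 in D218Y, and fell by 0.36 ± 0.08 in D218G (adjusted p = 0.00375). Pdk1 and Pfkm thus had opposite signs in R216W and D218G, where Pfkm was at -0.73 and 1.16, against a shared wild type. In R216Q and D218Y both genes rose. Pdk3 fell by 0.33 ± 0.04 in D218Y, 0.17 ± 0.04 in D218G and 0.15 ± 0.04 in R216W, and was at 0.08 ± 0.04 in R216Q. For R216Q its adjusted p was 0.305, and 0.0257 to 0.73 over the alternatives, and it passed only with array weights (adjusted p = 0.0257). The R216W call of Pdk3 (adjusted p = 0.0254, and 0.000738 to 0.098 over the alternatives) was lost without replicate 1 (adjusted p = 0.0923) or 2 (adjusted p = 0.098) of wild type or any of the R216W replicates (adjusted p = 0.0511, 0.092 and 0.0614). Its D218G call (adjusted p = 0.0113, and 0.00092 to 0.127 over the alternatives) did not hold when replicate 2 of wild type (adjusted p = 0.053) or of D218G (adjusted p = 0.056) was left out. With the arrays of the compared lines alone both the R216W and the D218G call of Pdk3 were lost (adjusted p = 0.0621 and 0.127).

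Lactate and pyruvate cross the cell membrane through monocarboxylate transporters. Slc16a1, the widespread form MCT1, read 10.21, 10.27 and 10.17 in wild type, 10.74, 10.76 and 10.71 in R216Q, 9.91, 10.08 and 9.99 in R216W, 10.79, 10.70 and 10.79 in D218G, and 11.07, 10.98 and 11.08 in D218Y. As for Pfkm, R216W lay below wild type and the other lines above it. Slc16a1 rose by 0.82 ± 0.05 in D218Y (adjusted p = 2.16e-09), 0.54 ± 0.05 in D218G and 0.52 ± 0.05 in R216Q, and fell by 0.23 ± 0.05 in R216W (adjusted p = 0.00339). Slc16a3, the lactate exporter MCT4, rose by 0.68 ± 0.08 in R216Q (adjusted p = 1.18e-05) and by 0.23 ± 0.08 in D218Y (adjusted p = 0.0277, and 0.0108 to 0.482 over the alternatives). The D218Y call of Slc16a3 was lost without replicate 2 (adjusted p = 0.0695) or 3 of wild type (adjusted p = 0.0834), without replicate 1 (adjusted p = 0.138) or 2 of D218Y (adjusted p = 0.051), and under quantile normalization, where its rise was 0.08 (adjusted p = 0.482).

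Of 3 measured pentose phosphate genes, 1 rose in every mutant line: Pgd, the dehydrogenase that makes NADPH at the second oxidative step. Pgd read 10.55, 10.55 and 10.63 in wild type, 10.93, 10.93 and 11.02 in R216Q, 10.87, 10.92 and 10.87 in R216W, 10.80, 10.81 and 10.78 in D218G, and 11.31, 11.30 and 11.33 in D218Y. All mutant arrays lay above wild type, D218Y highest and D218G lowest among them. Pgd rose by 0.74 ± 0.04 in D218Y (adjusted p = 3.65e-10), 0.38 ± 0.04 in R216Q, 0.31 ± 0.04 in R216W and 0.22 ± 0.04 in D218G. In the sugar-exchanging branch, Tkt (transketolase) rose in R216Q by 0.15 ± 0.03 and passed in no other mutant line. For D218G the adjusted p of Tkt was 0.116, and 0.0101 to 0.376 over the alternatives. It passed there among genes of above-median intensity (adjusted p = 0.03) and by eBayes with trend and robust (adjusted p = 0.0101). Taldo1 (transaldolase) passed in none, at -0.11 ± 0.04 in both R216Q (adjusted p = 0.054) and R216W (adjusted p = 0.0613). Taldo1 in R216Q (0.000642 to 0.18 over the alternatives) passed without replicate 3 of R216Q (adjusted p = 0.0395) or replicate 1 (adjusted p = 0.0489) or 3 (adjusted p = 0.033) of D218G, and in R216W (0.00544 to 0.161) without replicate 3 of D218G (adjusted p = 0.0374). It also passed under quantile (adjusted p = 0.0355 in R216Q and 0.0212 in R216W) and cyclic loess normalization (adjusted p = 0.0263 and 0.0351). In both lines the same held among genes of above-median intensity, by eBayes with trend and robust, and with array weights.

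Of the 4 measured members in glycogen synthesis and hexose phosphate interconversion, 4 rose in R216W and D218Y and 3 in R216Q and D218G. Gys1, glycogen synthase, read 7.39, 7.26 and 7.34 in wild type, 8.04, 7.77 and 8.01 in R216Q, 7.85, 7.86 and 7.82 in R216W, 7.70, 7.62 and 7.76 in D218G, and 8.64, 8.36 and 8.40 in D218Y. No mutant array of Gys1 overlapped wild type. It rose by 1.14 ± 0.08 in D218Y (adjusted p = 1.36e-08), 0.61 ± 0.08 in R216Q, 0.52 ± 0.08 in R216W and 0.36 ± 0.08 in D218G (adjusted p = 0.00412, and 0.00139 to 0.104 over the alternatives, the highest with array weights). Gbe1, the branching enzyme, rose by 0.99 ± 0.09 in D218Y, 0.42 ± 0.09 in R216Q, 0.36 ± 0.09 in R216W and 0.30 ± 0.09 in D218G, where its arrays overlapped wild type. The D218G call of Gbe1 (adjusted p = 0.0308, and 0.00284 to 0.193 over the alternatives) was lost without replicate 1 (adjusted p = 0.126) or 3 of wild type (adjusted p = 0.119), without replicate 1 (adjusted p = 0.0719) or 3 of D218G (adjusted p = 0.122), and with a replicate block (adjusted p = 0.0518). Gbe1 in D218G also did not pass with the arrays of the compared lines alone (adjusted p = 0.193) or with array weights (adjusted p = 0.0931). Its R216W call (adjusted p = 0.011, and 6.83e-05 to 0.057 over the alternatives) was lost without replicate 1 (adjusted p = 0.057) or 3 of wild type (adjusted p = 0.0528) or replicate 1 of R216W (adjusted p = 0.0542).

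Pgm1, which interconverts glucose 1- and 6-phosphate, read 6.95, 7.14 and 6.86 in wild type, 8.20, 7.91 and 7.998 in R216Q, 8.32, 8.11 and 8.18 in R216W, 6.79, 6.77 and 7.26 in D218G, and 8.77, 8.55 and 8.36 in D218Y. D218G overlapped wild type, and the other lines lay above both. Pgm1 rose by 1.58 ± 0.13 in D218Y (2.98-fold, adjusted p = 1.17e-07), 1.22 ± 0.13 in R216W and 1.05 ± 0.13 in R216Q, and was at -0.05 ± 0.13 in D218G (adjusted p = 0.888). Pgm2 rose by 0.41 ± 0.04 in D218Y, 0.31 ± 0.04 in D218G and 0.20 ± 0.04 in R216W. In R216Q it was at 0.11 ± 0.04 (adjusted p = 0.0916, and 0.0027 to 0.296 over the alternatives), and it passed without replicate 2 of R216Q (adjusted p = 0.0366). There Pgm2 also passed among genes of above-median intensity (adjusted p = 0.033), by eBayes with trend and robust (adjusted p = 0.0304) and with array weights (adjusted p = 0.0027).

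The balance within isozyme pairs was compared as the log2 difference between both members on the same array, which shows unequal change and not the level of either. There were 15 pairs with both members measured, each compared with wild type in 4 lines. Not all of them are isozymes in the strict sense. Pgam1 and Bpgm are related mutases with different products, and the Slc2a and Slc16a pairs are transporters. With 3 arrays per line an exact permutation test, two-sided, has a smallest possible p of 0.1, so none could pass, and the smallest value adjusted over the 60 comparisons was 0.122. Hk3 and Pfkfb3 lay below every array median on all 15 arrays and Hk1 rests on the probe set that read level, so pairs that hold them are not described. The balance moved toward Pgam1 and away from Bpgm by 2.42 in D218Y, 1.47 in R216Q, 1.15 in R216W and 0.73 in D218G, without overlap with wild type in any of them. Toward Pkm and away from Pklr it moved by 1.67, 1.18, 0.85 and 0.29 in the same order, also without overlap. How often other pairs of genes lay without overlap was not counted. The SDs of Pgam1 against Bpgm were 0.07 in D218Y and 0.14 in wild type (n = 3), and those of Pkm against Pklr 0.07 in both.

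Phosphofructokinase had the balance that differed most in direction. Pfkm against Pfkp moved by -1.49 in R216W, -0.87 in R216Q and -0.22 in D218Y, toward Pfkp, and by 0.38 in D218G, toward Pfkm (exact p = 0.1 each). Pfkl against Pfkm moved by 1.15 in R216W and by -1.10 in D218G. Pdk1 against Pdk3 moved by 1.19 in R216W and -0.19 in D218G, and Pgm1 against Pgm2 by 1.02 in R216W and -0.36 in D218G, the last with arrays that overlapped wild type (exact p = 0.2).

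**Figure D3:**
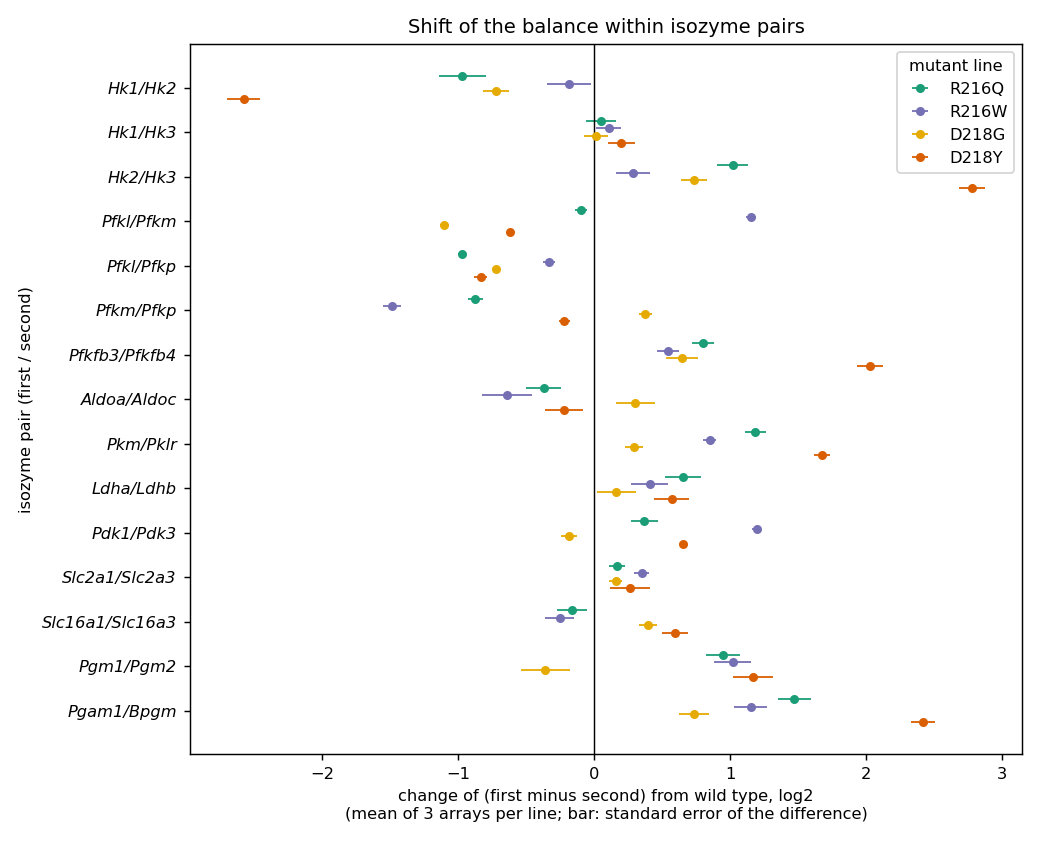
Change from wild type of the log2 difference between the members of 15 pairs of isozymes or related genes (rows), in 4 mutant lines (colours). Points are differences of means over 3 arrays, and bars are standard errors of the difference. Pgam1/Bpgm in D218Y lies at 2.42, the Pfkm/Pfkp points lie on both sides of 0, from -1.49 in R216W to 0.38 in D218G, and pairs with Hk3 or Pfkfb3 hold a gene below every array median.

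The R216W and R216Q lines, which carry tryptophan or glutamine in place of the same arginine, had different levels of many members. Of 33, 13 were lower and 2 higher in R216W than in R216Q (median -0.07), where 16.9% of all genes tested were called (8.25% higher and 8.65% lower). Among the lower genes Pfkm differed most, by -1.25 ± 0.04 (adjusted p = 2.78e-11), followed by Hk2 (-0.77 ± 0.09), Slc16a1 (-0.74 ± 0.05), Slc16a3 (-0.65 ± 0.08), Pfkp (-0.64 ± 0.06), Slc2a3 (-0.53 ± 0.12) and Slc2a1 (-0.35 ± 0.07). Both glucose transporters and both monocarboxylate transporters were thus lower in R216W, and Ldha, Tkt and Pdk3 were lower as well (-0.16 ± 0.04, -0.18 ± 0.03 and -0.23 ± 0.04). The 2 that were higher were Pdk1 (0.59 ± 0.08, adjusted p = 5.63e-05) and Pfkfb4 (0.23 ± 0.04, adjusted p = 0.000923). None of the 4 glycogen and hexose phosphate mutase genes passed, with Pgm1 at 0.17 ± 0.13. Differences in lower glycolysis were small, from -0.25 ± 0.07 for Pkm to 0.21 ± 0.13 for Aldoc, and Tpi1 was lower by 0.18 ± 0.03. The calls of Pgam1 (adjusted p = 0.0165, and 0.00135 to 0.0825 over the alternatives) and Pkm (adjusted p = 0.0164, and 0.000643 to 0.0894) were both lost without replicate 1 (adjusted p = 0.0779 and 0.0704) or 3 (adjusted p = 0.069 and 0.0894) of R216Q or replicate 2 of R216W (adjusted p = 0.0825 and 0.054), and that of Pkm also without replicate 3 of R216W (adjusted p = 0.0629). Pgk1 (adjusted p = 0.0632, and 0.00681 to 0.276 over the alternatives) passed without replicate 2 of R216Q (adjusted p = 0.0118), and Pfkfb2 (adjusted p = 0.0936, and 0.019 to 0.293) without replicate 3 of D218G (adjusted p = 0.0337). Both also passed among genes of above-median intensity (adjusted p = 0.026 and 0.0373), by eBayes with trend and robust (0.0101 and 0.0496) and with array weights (0.00681 and 0.019). Pfkfb2 passed under quantile (adjusted p = 0.0211) and cyclic loess normalization (adjusted p = 0.0363) as well.

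The D218Y and D218G lines carry tyrosine or glycine in place of the same aspartate, and more members were higher in D218Y. Of 33 members 17 were higher and 6 lower in D218Y than in D218G (median 0.25), where 33.0% of all genes tested were called (17.4% higher and 15.6% lower). Hk2 differed by 1.86 ± 0.09 (adjusted p = 5.75e-10), Pgm1 by 1.62 ± 0.13, Pgam1 by 1.35 ± 0.06, Pkm by 1.01 ± 0.07 and Pdk1 by 0.69 ± 0.08. Pfkfb4 was lower (-1.53 ± 0.04, adjusted p = 1.27e-12), and Pklr (-0.38 ± 0.03), Bpgm (-0.33 ± 0.07), Pfkfb2 (-0.23 ± 0.05), Hk3 (-0.18 ± 0.05) and Pdk3 (-0.15 ± 0.04) were lower too. Pfkm, which rose in both lines, was at -0.02 ± 0.04 between them (adjusted p = 0.716), and Aldoa was at 0.03 ± 0.04. The Pdk3 call (adjusted p = 0.0147, and 0.00151 to 0.0825 over the alternatives) was lost without replicate 2 of D218Y (adjusted p = 0.0516), and that of Hk3 (adjusted p = 0.0118, and 0.00661 to 0.11) under quantile (adjusted p = 0.0581) and cyclic loess normalization (adjusted p = 0.11). Pdk3 also did not pass with the arrays of the compared lines alone (adjusted p = 0.0574) or with array weights (adjusted p = 0.0825).

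**Figure D4:**
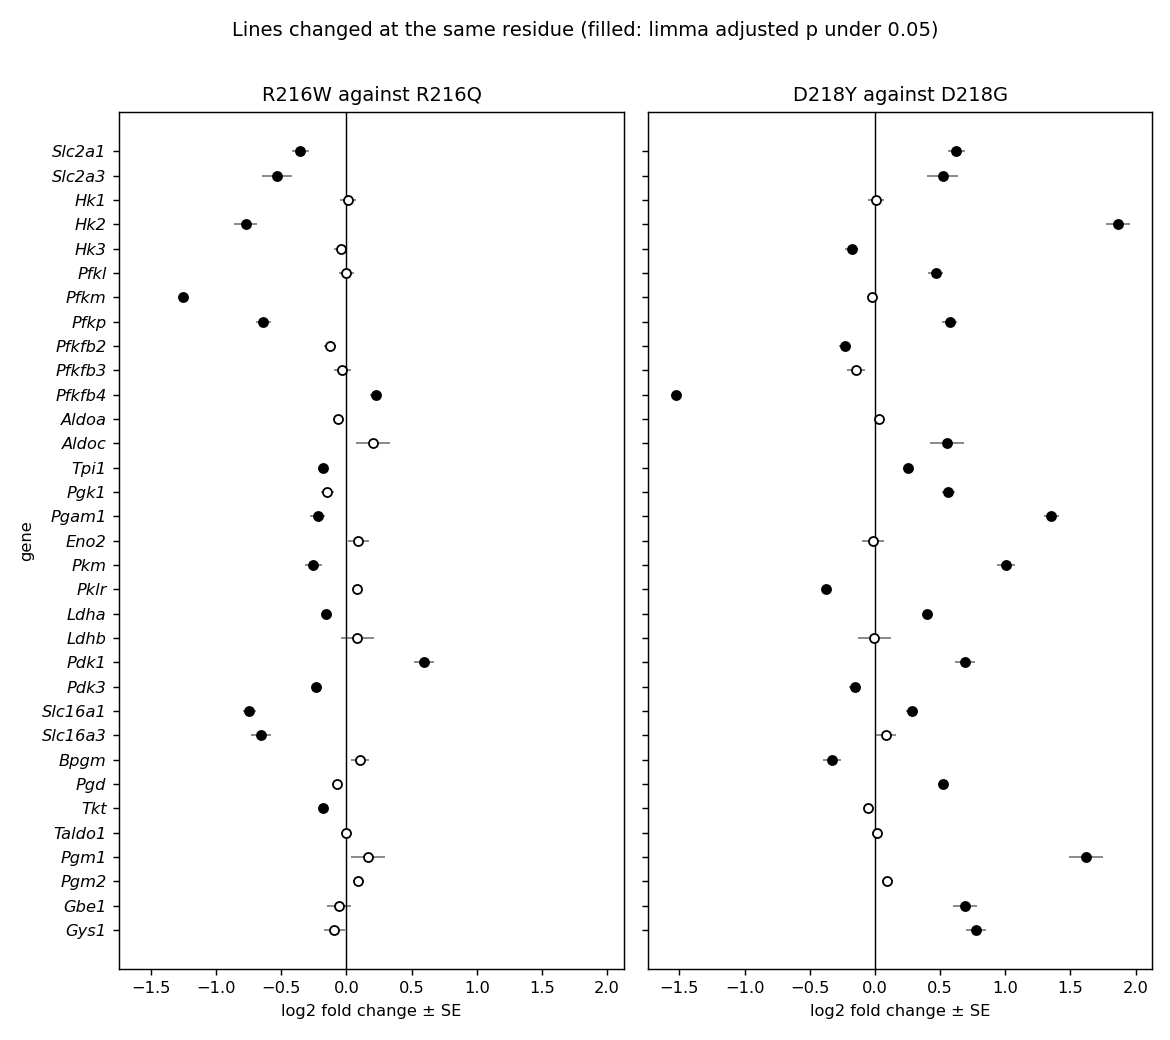
Log2 fold changes with limma's standard errors (horizontal axis) of the 33 measured genes (rows) between lines changed at the same residue; filled points passed an adjusted p under 0.05. In the left panel Pfkm lies farthest left (-1.25) and Pdk1 farthest right (0.59), and in the right panel Hk2 (1.86) and Pfkfb4 (-1.53) lie farthest apart.

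Of 82 further genes of sugar metabolism, 73 were measured. In D218Y 26 rose and 13 fell (53.4% of them, median -0.02), in R216Q 17 rose and 4 fell (28.8%), in R216W 13 rose and 8 fell (28.8%), and in D218G 17 rose and 3 fell (27.4%). The shares of all genes called were 44.4%, 21.5%, 16.6% and 18.1% in the same order. Pdk2, a pyruvate dehydrogenase kinase like Pdk1, had the largest change and fell by 1.90 ± 0.04 in D218Y, 0.74 ± 0.04 in R216Q, 0.39 ± 0.04 in R216W and 0.28 ± 0.04 in D218G. Gfpt1, the entry enzyme of hexosamine synthesis, rose by 1.51 ± 0.05 in D218Y, and Pgm3, a phosphoacetylglucosamine mutase, by 1.21 ± 0.09. Both also rose in R216Q (0.69 ± 0.05 and 0.72 ± 0.09) and R216W (0.53 ± 0.05 and 0.54 ± 0.09), and in D218G Pgm3 rose by 0.48 ± 0.09 while Gfpt1 was at 0.12 ± 0.05. Adpgk, a glucokinase that uses ADP, rose by 0.99 ± 0.045 in D218Y, 0.59 ± 0.045 in D218G and 0.36 ± 0.045 in R216Q and fell by 0.23 ± 0.045 in R216W, the signs seen for Pfkm. The others among the 8 largest changes were Slc37a4 (0.86 ± 0.06 in D218Y), Pgm2l1 (-0.83 ± 0.05), Prps2 (0.79 ± 0.04) and Mpi (0.72 ± 0.05).

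Of 27 measured regulators of these pathways 11 rose and 7 fell in D218Y, 7 and 3 in R216Q, 5 and 5 in R216W, and 5 and 4 in D218G. These are 66.7%, 37%, 37% and 33.3% of them, where 44.4%, 21.5%, 16.6% and 18.1% of all genes tested were called in the same order. Myc, an activator of many glycolytic genes, rose by 1.13 ± 0.05 in D218Y, 0.48 ± 0.05 in D218G and 0.31 ± 0.05 in R216Q, and was at -0.12 ± 0.05 in R216W (adjusted p = 0.0884). Its antagonist Mxi1 fell by 0.53 ± 0.04 in D218Y, 0.22 ± 0.04 in R216Q, 0.15 ± 0.04 in D218G and 0.14 ± 0.04 in R216W. Egln1, the oxygen sensor that marks HIF for breakdown and is itself a HIF target, rose by 0.87 ± 0.07 in D218Y, 0.66 ± 0.07 in R216Q, 0.52 ± 0.07 in R216W and 0.27 ± 0.07 in D218G. Hif1a rose by 0.34 ± 0.04 in D218Y and 0.15 ± 0.04 in R216Q. Its partner Arnt rose by 0.23 ± 0.03 in R216W, fell by 0.27 ± 0.03 in D218Y and by 0.13 ± 0.03 in D218G, and was at -0.01 ± 0.03 in R216Q. Vhl, which takes part in HIF breakdown, rose by 0.26 ± 0.06 in D218Y, and Egln2, Egln3, Epas1 and Hif1an passed in no mutant line. Mlxip, a glucose-responsive factor, rose by 0.43 ± 0.04 in D218G, 0.27 ± 0.04 in R216Q and 0.15 ± 0.04 in D218Y and fell by 0.24 ± 0.04 in R216W. Bach1 fell by 0.55 ± 0.04 in D218Y, 0.37 ± 0.04 in R216W, 0.28 ± 0.04 in D218G and 0.25 ± 0.04 in R216Q. Max rose by 0.33 ± 0.04 in D218G and 0.19 ± 0.04 in D218Y, and fell by 0.41 ± 0.04 in R216W. Mlx rose in every mutant line, and Foxk1 in R216Q, R216W and D218Y. Prkaa1 rose in R216W and D218Y and fell in D218G. Whether any of these regulators acted on the members was not tested.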

How the data were processed

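Total RNA from 15 cultures was measured on Affymetrix mouse arrays. The table the authors deposited gives log2 expression per probe set. The submitters' processing notes name Partek 6.6 and RMA, a method that removes background, normalizes between arrays and combines probes; the sources used here give no RMA version. Of 28350 probe sets, 21780 had 1 gene symbol, 1618 several and 4952 none listed, which gave 19933 genes. All genes were kept whatever their level, and values were used as deposited. RMA compresses differences of dim genes, and precision is set by the number of arrays.

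Lines were taken from the sample titles. All genes were fitted with limma 3.58.1 (R 4.3.3) by lmFit, with a mean for each of 5 lines, contrasts and eBayes, two-sided, and p-values were adjusted over all genes tested within a comparison. The scripts were tested on simulated data.

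Values of every array are given for the member of each role with the largest F statistic and for members changed by at least 1 from wild type; among the further genes the 8 with the largest change are named, and any regulator could be. The members and lists were chosen with earlier results of these data known. Alternatives were quantile or cyclic loess normalization, only genes of above-median intensity, arrays of the compared lines alone, eBayes with trend and robust, array weights, a replicate block, averaging the probe sets of a gene and each array left out. Other probe sets of a gene were added after the values were seen.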

Additional observations from a re-analysis of the deposited data

How the results depend on the processing

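Every count of members called, in the 6 comparisons and the F test, stayed within 1.5 times its value under each alternative run for it. Leaving out single arrays gave 23 to 24 members for R216Q, 20 to 23 for R216W, 16 to 20 for D218G, 25 to 27 for D218Y, 13 to 16 for R216W against R216Q and 22 to 23 for D218Y against D218G, with 28 to 29 by the F test. With the replicate block the counts were 23, 22, 17, 27, 15 and 23 in the same order, and the only member call it ended was Gbe1 in D218G (adjusted p = 0.0518). Isozyme comparisons without overlap numbered 49 of 60, and 49 to 54 with single arrays left out. Leaving out an array can only narrow a range, so that count could not fall and does not measure stability. It was 47 under quantile and 48 under cyclic loess normalization, and 51 with the probe sets of a gene averaged. No such count was made for other pairs of genes, so it shows nothing particular to isozymes. The replicate numbers did not pair the arrays: deviations of same-numbered arrays correlated at -0.50 to 0.41, and 2 of 15 arrays matched best with their own number. Of 128 called differences of single members 113 kept their call under every alternative and 15 lost it under at least 1, with no change of direction, and 15 that had not passed did so under at least 1. With the arrays of the compared lines alone 14 members differed in D218G, and with array weights 15. Over all genes, array weights called 7357 in place of 4283 in R216Q, 5403 in place of 3308 in R216W and 5397 in place of 3369 between them, and the compared lines alone called 2106 in place of 3601 in D218G. Hk1 was the exception in direction: its other probe set, added after the values were seen, read -0.15 in R216Q, -0.19 in R216W, -0.17 in D218G and -0.25 in D218Y, and the mean of both gave -0.12 in D218Y (adjusted p = 0.0144). The cause was not tested.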
